A study of Mus musculus with 24 samples.

Results

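The comparison set liver macrophages taken 7 days after 70% liver resection with the spleen in place (LR 7 days) against those of the intact group. It used 6 of the 24 Clariom S mouse arrays of the series, 3 per group, chosen by their titles, and all 22206 transcript clusters of the array. The study's methods state that the mice were male C57BL/6 animals. Cells came from collagenase-digested liver, hepatocytes were spun down, the remaining cells were layered on a density gradient, and those carrying F4/80, a surface protein encoded by Adgre1, were selected with magnetic beads. Each preparation pooled the cells of several mice, and whether arrays of a group shared mice is not stated. The labels call the control group intact, whereas sham-operated mice are named in the methods, and it is not known which holds. No mouse of either group had lost its spleen. Values are the deposited log2 signals, on which a difference of 1 is a factor of 2, and ± stands for the standard error of a difference or the SD of a mean (n = 3 arrays per group).

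The liver regrows after removal of most of its mass, and by the end of the first week in mice the remnant has largely regained its size. Resident macrophages of the liver, the Kupffer cells, line the sinusoids, take up particles and dying cells with scavenger and complement receptors, and release cytokines and growth factors. Monocytes from blood enter the injured liver through chemokine receptors such as Ccr2 and can mature into macrophages that resemble Kupffer cells. Preparations of Kupffer cells commonly also hold RNA of hepatocytes and sinusoidal endothelial cells.

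The selected population carried the defining genes of macrophages and Kupffer cells in both groups. Adgre1 stood at 14.25, 16.61 and 14.84 on LR 7 days replicates 1, 2 and 3, against 13.83, 15.39 and 14.62 on intact replicates 1, 2 and 3. Vsig4, a complement receptor of Kupffer cells, was between 19.56 and 19.70 in LR 7 days and between 19.59 and 19.83 in intact. The highest value of the table was 19.93, so levels this close to the top were compressed. On each array 50.0% to 53.2% of clusters exceeded 3.98, the background level taken from odorant receptor genes. Over the 2000 most variable clusters LR 7 days replicate 2 correlated with replicates 1 and 3 at 0.884 and 0.892, and those 2 with each other at 0.962. On the same clusters intact arrays correlated with one another at 0.956 to 0.978.

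The expression of Y-linked genes differed between arrays of the same label. The mean of Kdm5d, Eif2s3y and Uty, genes of the Y chromosome, in LR 7 days was 7.63 for replicate 1 and 6.99 for replicate 3, but 2.68 for replicate 2. On the intact arrays it was 3.08, 2.60 and 2.72, also below background. Of the other 18 arrays only replicate 1 of LR+SE 3 days (resection after splenectomy) lacked the signal, at 2.63. X-linked genes that escape inactivation (Kdm6a, Eif2s3x and Ddx3x) averaged 10.82, 13.95 and 11.18 in LR 7 days, against 13.05, 13.33 and 13.71 in intact. The intact group as a whole and 1 of the 3 LR 7 days preparations therefore lacked Y-linked signal although the methods name male mice. Sex and resection cannot be told apart between the intact arrays and LR 7 days replicates 1 and 3. Calls were also counted without LR 7 days replicate 2, which shows what rests on that array but cannot separate sex from resection. They were counted too in a fit with Y-linked signal as a block. Besides LR 7 days only LR+SE 3 days held arrays of both kinds, so the block rests on these groups. It also takes up whatever else set LR 7 days replicate 2 apart.

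**Figure D1:**
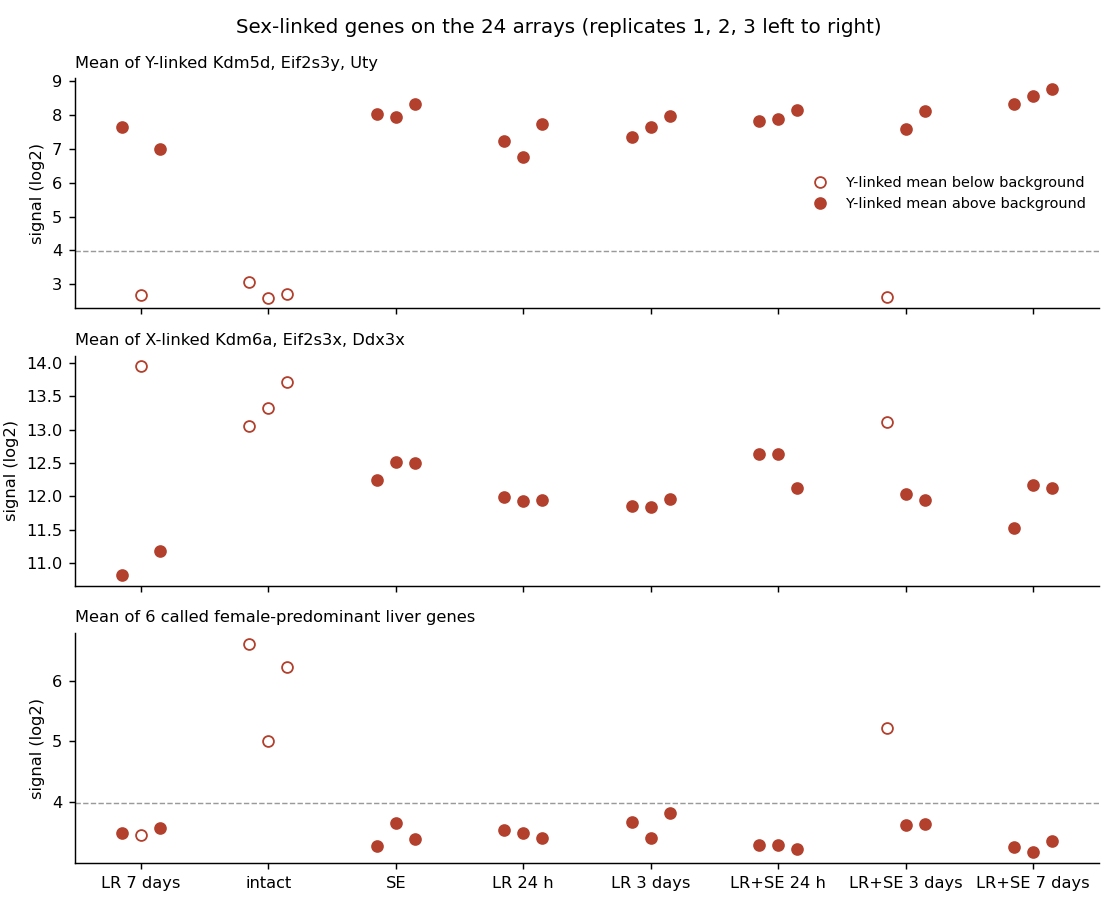
Mean log2 signal per array of Y-linked genes, of X-linked genes that escape inactivation and of the 6 called female-predominant liver genes, with 1 point per array, open where the Y-linked mean was below background (dashed line), and the 8 groups along the horizontal axis. The Y-linked mean lay below the background of 3.98 on all 3 intact arrays, on LR 7 days replicate 2 and on LR+SE 3 days replicate 1, and the female-predominant mean was 3.46 to 3.58 in LR 7 days against 5.01 to 6.61 in intact.

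At 7 days 222 of 22206 clusters (1.00%) differed between LR 7 days and intact preparations at an adjusted p under 0.05 (limma on all 24 arrays, Benjamini-Hochberg over all clusters). Of these 86 were higher (0.387%) and 136 lower (0.612%) in LR 7 days, and 216 differed by at least 1 log2 unit. The median size of a called difference was 1.94, with a median standard error of 0.406. In 221 of the calls the arrays of the groups did not overlap, which held for 13.2% of all clusters. The calls covered 207 distinct gene symbols, and 14 clusters had none. Across all clusters the median difference was 0.02.

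How many clusters were called depended on single arrays. Without LR 7 days replicate 2, 781 clusters (3.52%) were called (300 higher, 481 lower), and 198 of the 222 were called again. The LR 7 days arrays left in that fit all differed from intact in Y-linked signal. Replicate 2 alone against the intact arrays, all without that signal, gave the 222 a median size of 1.82, against 1.94 with all arrays. The 222 were chosen with replicate 2 included. Without LR 7 days replicates 1 and 3 the count was 100 and 122, and without intact replicates 1, 2 and 3 it was 81, 218 and 86. With the block on Y-linked signal 45 were called, 33 of them among the 222, at a median standard error of 0.475. All 222 kept their direction without replicate 2 and with the block. Of the 90 called genes named here 31 kept the call without each of the 6 arrays in turn, and all 90 kept their direction. For the 221 calls without overlap of the groups, leaving out an array could not turn the direction, so the kept direction adds no evidence there.

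The 31 were Marco, Gda, Ccr2, Cd83, Hspa1a, Hspa1b, Hbegf, Bhlhe40, Ier5, Klf4, C1qb, Slc9a9, Slc15a2, Slc27a6, Ptger4, Ston2, Selenom, Tinagl1, Cd22, Cd1d2, Jchain, Pigr, Ces1c, Sult2a8, Cyp2a5, Cyp2b9, Cyp3a16, Cyp3a41a, Cyp4b1, Pon1 and Serpina6. The other 59 lost the call without at least 1 array. With the Y-linked block 24 of the 90 kept their call, and the other 66 lost it. A call kept with the block does not show that sex had no part. Ube2c, Ccnb2, E2f8 and Cd300e kept it with the block but lost it without replicate 2. The 24 were Marco, Gda, Cd83, Hspa1a, Hspa1b, Klf4, Cd300e, Ptger4, Mki67, Ube2c, Ccnb2, E2f8, Cyp2e1, Cyp2b9, Sult2a8, Upp2, Serpina6, Slc15a2, Slc27a6, Slc9a9, Tinagl1, Ston2, Selenom and Cd1d2.

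**Figure D2:**
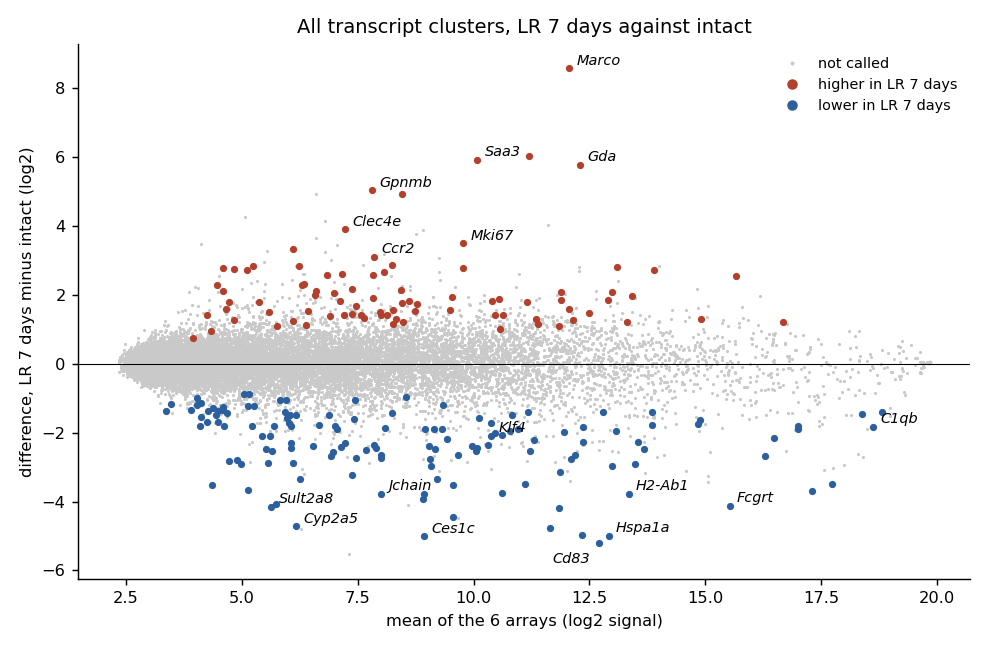
Log2 difference (LR 7 days minus intact) of each of the 22206 transcript clusters on the vertical axis against its mean log2 signal on the horizontal axis, with called clusters in colour and some of them named. The 86 calls above zero were led by Marco and the 136 below it by Cd83.

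Marco showed the largest called difference in either direction. This class A scavenger receptor binds bacteria and particles and is carried by Kupffer cells and by macrophages of the spleen's marginal zone. Its level was 15.61, 17.68 and 15.78 in LR 7 days, in the order of replicates 1, 2 and 3, against 6.40, 8.46 and 8.46 on the intact arrays. Every LR 7 days array lay far above every intact array. On the arrays of splenectomy alone, without resection, it was 10.67, 13.18 and 12.15, also above every intact array. Marco rose by 8.58 ± 0.82 (adjusted p = 3.11e-05), by 7.92 without replicate 2 and by 9.28 with the Y-linked block. It was called in all 4 fits, which were all arrays, without replicate 2, with replicate 2 alone, and with the block.

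The remaining Kupffer cell genes did not follow Marco. Of 21 measured genes of Kupffer cell identity Marco alone was called, against 1.00% of all clusters. The median difference was -0.41, and the mean level was 14.81, 15.48 and 15.07 in LR 7 days, against 15.02, 15.56 and 15.41 in intact. Timd4, a receptor for phosphatidylserine on dying cells, differed by -0.07 ± 0.68. The lectin Clec4f stood at 17.83, 15.60 and 19.20 in LR 7 days, against 19.68, 19.41 and 19.21 in intact. Its lowest array was LR 7 days replicate 2 and its difference, -1.89 ± 0.72, did not pass (adjusted p = 0.243). Cd5l, a survival factor secreted by Kupffer cells, and Csf1r, the receptor for the macrophage growth factor Csf1, differed by 0.05 ± 0.26 and -0.45 ± 0.28 near the top of the scale. None of 18 general macrophage markers was called (median -0.04). Other scavenger receptors did not pass either, and Marco was the single call among 16.

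Gda, guanine deaminase of purine breakdown, had the third largest rise among clusters with a gene symbol. It was 15.46, 14.87 and 15.25 in LR 7 days, against 8.26, 9.55 and 10.47 in intact, a rise of 5.77 ± 0.83 (adjusted p = 0.00185) that kept its call in all 4 fits. Saa3, a serum amyloid made by macrophages and other cells outside the hepatocyte, stood at 14.66, 12.68 and 11.78 in LR 7 days, against 6.94, 7.63 and 6.82 in intact. It rose by 5.91 ± 1.26 (adjusted p = 0.0258, up to 0.131 with 1 array left out and 0.181 with the Y-linked block). Saa3 was the only called gene of 24 acute phase genes (median 0.47). At 24 h, tested against the same intact arrays, 20 of the 24 were called, all higher.

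Gpnmb, a glycoprotein of lipid-laden macrophages, was high on LR 7 days replicates 1 and 2 but not 3. Its level was 12.29, 11.89 and 6.77 in LR 7 days, against 5.66, 5.14 and 5.07 in intact. The rise was 5.03 ± 1.13 (adjusted p = 0.0336) and lost its call without replicate 2 (4.24, adjusted p = 0.0593) and without 4 of the other 5 arrays (adjusted p up to 0.164). Trem2, a lipid receptor of the same macrophages, stood at 8.56, 6.60 and 5.32, against 4.67, 5.60 and 4.43 in intact, and did not pass (1.93 ± 0.81, adjusted p = 0.314). The fatty acid binding protein Fabp4 stood at 12.93, 8.25 and 10.77, against 7.03, 6.44 and 7.17 in intact. It did not pass (adjusted p = 0.0538), and it passed without replicate 2 (4.97, adjusted p = 0.00277). Of 18 lipid-associated macrophage genes 1 was called, with a median of 0.30.

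**Figure D3:**
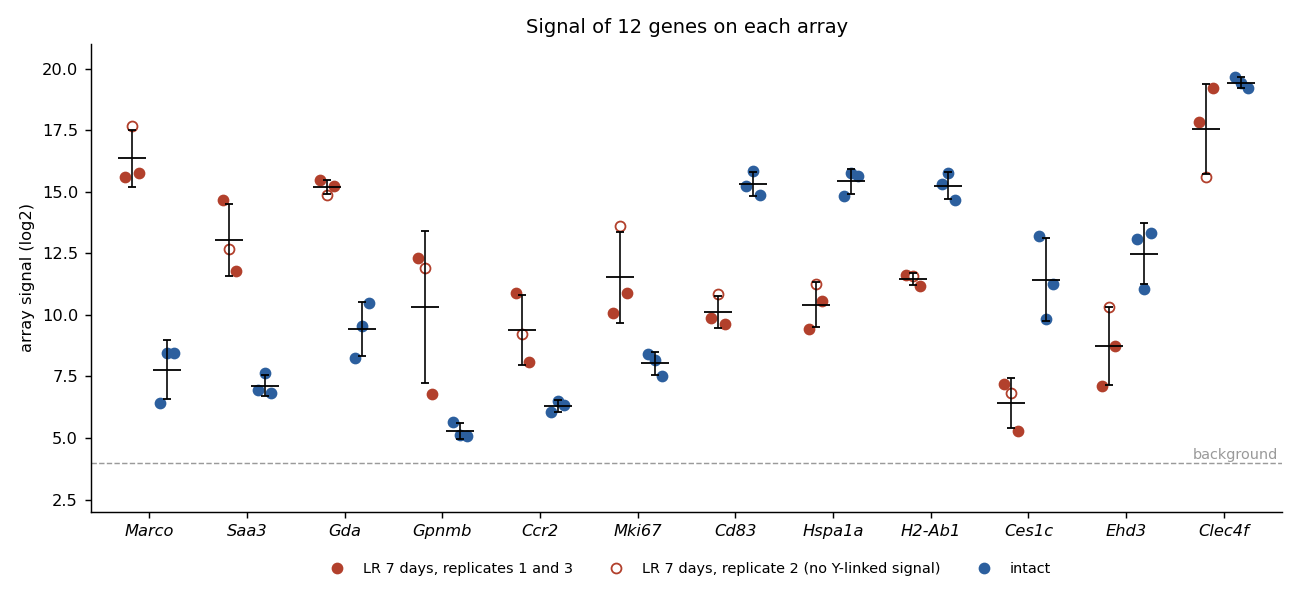
Log2 signal of 12 genes on each array, LR 7 days left of intact for each gene, with 1 point per array (LR 7 days replicate 2 open), a horizontal bar at the mean and error bars of 1 SD. The dashed line is the background. All 3 LR 7 days arrays of Marco (15.61 to 17.68) lay above all intact arrays (6.40 to 8.46), and those of Cd83 (9.62 to 10.84) lay below them (14.88 to 15.82).

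A pair of chemokine receptors and a pair of C-type lectins of myeloid cells rose. Ccr2, the receptor that brings monocytes out of marrow, stood at 10.89, 9.21 and 8.08 in LR 7 days, against 6.04, 6.50 and 6.35 in intact. It rose by 3.10 ± 0.55 (adjusted p = 0.00835) and by 3.19 without replicate 2, and did not pass with the Y-linked block (3.23, adjusted p = 0.055). Ccr1, a receptor for several inflammatory chemokines, was 8.98, 7.04 and 7.32 in LR 7 days, against 3.94, 4.37 and 5.05 in intact (3.33 ± 0.76, adjusted p = 0.0378, up to 0.178 with 1 array left out). They were the 2 called genes of 17 chemokine receptors, whose median was 0.18 (0.387% of all clusters were called higher). No chemokine of 24 was called.

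Clec4e, the lectin Mincle that senses fungal and mycobacterial glycolipids and dead cells, was 10.62, 8.90 and 7.999 in LR 7 days, against 4.72, 5.73 and 5.36 in intact. It rose by 3.90 ± 0.92 (adjusted p = 0.0433, up to 0.2 with 1 array left out). Its neighbour Clec4a1 rose by 1.95 ± 0.42, and both were the calls among 17 myeloid lectins (median 0.14, with 0.387% of all clusters called higher). Slamf9, an immune receptor of the SLAM family, and Cd300e, an activating receptor of monocytes, rose by 2.83 ± 0.67 and 2.82 ± 0.66. Cd300e lost its call without replicate 2 (2.29, adjusted p = 0.0807), and either lost it without at least 3 other arrays.

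Of 19 measured monocyte genes 1 was called, and none with the Y-linked block. Their mean was 9.75, 8.67 and 8.91 in LR 7 days, against 7.77, 7.75 and 7.71 in intact. The log2 of their summed signal overlapped, at 19.21, 18.06 and 19.41 in LR 7 days, against 17.86, 18.12 and 18.03 in intact. Ccr2 was the only call, the median was 0.81, and 6 members were higher without overlap and none lower (13.2% of all clusters had no overlap in either direction). Without replicate 2, 5 were called and the median was 1.07. The additional calls included Plac8 (4.73), Ms4a4c (3.88) and Ly6c2 (3.79), the gene for the monocyte antigen Ly6C. Plac8 was 16.86, 11.64 and 17.77 in LR 7 days, against 12.31, 13.12 and 12.33 in intact, so that replicate 2 lay below every intact array. Cx3cr1, the fractalkine receptor, and Itgam, the integrin CD11b, had differences of 2.96 ± 0.89 and 3.89 ± 1.15 that did not pass (adjusted p = 0.122 and 0.113). Neutrophil genes had a median of 0.25 and no call among 20, at array means of 6.03, 6.01 and 5.18 in LR 7 days against 5.73, 4.65 and 5.61 in intact. In such bulk preparations more or fewer cells of a type and more or less RNA per cell cannot be told apart.

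The subunits of the GM-CSF receptor moved in opposite directions. Csf2ra, the ligand-binding subunit, was 8.28, 9.76 and 8.31 in LR 7 days, against 11.63, 11.33 and 10.99 in intact, and fell by 2.53 ± 0.53 (adjusted p = 0.0241). Csf2rb, the signalling subunit, was 10.00, 10.71 and 10.80, against 7.45, 9.25 and 8.97 in intact, and rose by 1.95 ± 0.41 (adjusted p = 0.0241). Neither group overlapped the other for either gene. With 1 array left out Csf2ra kept its call only without LR 7 days replicate 2 (adjusted p up to 0.112 otherwise), and Csf2rb lost its call without LR 7 days replicate 3 or intact replicate 1 (up to 0.124). With the Y-linked block neither passed (adjusted p = 0.281 for Csf2ra and 0.128 for Csf2rb). Ptger4, a receptor for prostaglandin E2, rose by 1.90 ± 0.36. Ptpn1, a tyrosine phosphatase that dampens cytokine receptors, rose by 2.54 ± 0.49, the actin crosslinker Flna by 2.73 ± 0.58 and the transcription factor Batf by 1.81 ± 0.41. The last of these lost its call without replicate 2 (1.42, adjusted p = 0.0744).

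Several genes of cell division rose, and replicate 2 stood above the other arrays. Mki67, the gene for the proliferation antigen Ki-67, was 10.08, 13.61 and 10.89 in LR 7 days, against 8.42, 8.16 and 7.50 in intact. It rose by 3.50 ± 0.69 (adjusted p = 0.0159), and by 2.46 without replicate 2 (adjusted p = 0.0228), and lost its call only without intact replicate 3 (adjusted p = 0.0881). Ube2c, which gives ubiquitin to mitotic proteins, rose by 2.77 ± 0.64, the mitotic cyclin Ccnb2 by 2.31 ± 0.53 and the spindle checkpoint kinase Bub1b by 2.29 ± 0.54. E2f8, a repressor of the E2F family that acts in late S phase, rose by 2.85 ± 0.63. All 4 lost the call without replicate 2, at adjusted p = 0.0797, 0.0667, 0.0856 and 0.0611, and without at least 3 other arrays. Wee1, a kinase that delays entry into mitosis, rose by 1.99 ± 0.38.

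Among 30 measured cell cycle and mitosis genes 4 were called, all higher (0.387% of all clusters were), and the median was 1.17. On the arrays the list averaged 5.10, 6.98 and 5.26 in LR 7 days, against 4.46, 4.43 and 4.31 in intact. Of its members 19 were higher without overlap and none lower (13.2% of all clusters had no overlap in either direction). Without replicate 2 the median was 0.63 and Mki67 the only call, while replicate 2 alone against intact gave 16 calls and a median of 2.57. Replication-dependent histone genes had no call among 31 but a median of 0.92, with 14 higher without overlap and none lower, and a median of 0.83 without replicate 2. DNA replication genes had no call among 25 (median 0.44).

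The promoters of Mki67 and Ube2c are shown as those, among the 4 called genes of this list, with a match in the last 100 bases before the start. The same stretch before Ccnb2 and Bub1b, the other 2 called genes, held no match to the letters below. All promoters of the list were searched for the core of the cell cycle genes homology region (TTTGAA, or TTCAAA on the other strand), an element that binds the DREAM and MuvB complexes. The windows were the 250 bases before each gene's RefSeq start on GRCm38.p6. The letters stood in 5252 of the 32851 windows of all genes and in 9 of the 25 cell cycle genes with a window, among them 3 of the 4 called. A gene counted if any of its windows matched, so these shares are in unlike units. The 100 bases before the start of Mki67 (chr7:135716380-135716479, minus strand) and Ube2c (chr2:164769829-164769928, plus strand) follow 5′ to 3′, with the match in capitals, 98 and 29 bases before the start. 
Mki67: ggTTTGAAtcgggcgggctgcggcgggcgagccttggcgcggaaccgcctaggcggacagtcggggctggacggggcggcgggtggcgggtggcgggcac
Ube2c: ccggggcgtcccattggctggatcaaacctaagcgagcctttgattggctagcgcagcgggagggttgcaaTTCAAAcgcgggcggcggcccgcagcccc
A match is a description of the letters and was not tested as a site.

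Cd83 had the largest fall of all named genes. This surface protein of activated antigen-presenting cells stabilises class II molecules and costimulatory ligands. It was 9.87, 10.84 and 9.62 in LR 7 days, against 15.22, 15.82 and 14.88 in intact, a fall of 5.20 ± 0.60 (adjusted p = 2.24e-04). The fall was 5.56 without replicate 2 and 4.65 with the Y-linked block, and it was called in all 4 fits. Cd80, a ligand of the T cell receptors Cd28 and Ctla4, fell by 1.39 ± 0.30 (adjusted p = 0.0283, up to 0.149 with 1 array left out). These were the 2 calls among 16 costimulatory and coinhibitory ligands, whose median was -0.06 (0.612% of all clusters were called lower).

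Class II genes, whose products present peptides to helper T cells, had lower values in LR 7 days, although only 1 of 11 passed (0.612% of all clusters were called lower). H2-Ab1, a beta chain, was 11.63, 11.60 and 11.17 in LR 7 days, against 15.31, 15.74 and 14.67 in intact. It fell by 3.78 ± 0.90 (adjusted p = 0.0443, up to 0.131 with 1 array left out and 0.312 with the Y-linked block). Its partner chain H2-Aa was 16.43, 16.56 and 15.73, against 18.58, 19.77 and 19.49 in intact, and H2-Eb1 was 13.20, 11.75 and 13.02, against 16.21, 16.26 and 15.85. Neither passed (-3.04 ± 1.03 and -3.45 ± 1.30, adjusted p = 0.181 and 0.24), although the groups did not overlap. Of the 11 measured genes 7 were lower without overlap (13.2% of all clusters had no overlap in either direction). The median was -2.02, or -1.80 without replicate 2. The list averaged 11.04, 10.58 and 10.96 in LR 7 days, against 12.50, 12.94 and 12.44 in intact.

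Some genes of lipid antigen presentation and Fc receptors fell too. Cd1d1, which presents lipids to natural killer T cells, fell by 2.30 ± 0.44, and Cd1d2 fell by 1.498 ± 0.23. They are similar in sequence, so signal of one may reach the probes of the other. Fcgrt, which protects albumin and antibodies from breakdown, was 12.60, 15.98 and 11.80 in LR 7 days, against 17.79, 17.44 and 17.55 in intact, and fell by 4.13 ± 0.94 (adjusted p = 0.037). The fall was 5.39 without replicate 2, where the call held, and without each of the other 5 arrays the call was lost (adjusted p up to 0.149). With the Y-linked block it was lost too (-2.21, adjusted p = 0.437). The low-affinity receptor Fcgr3 fell by 1.46 ± 0.33.

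C1qb, a chain of the complement starter C1q that macrophages make, was 17.18, 18.32 and 17.63 in LR 7 days, against 19.68, 19.60 and 19.36 in intact. It fell by 1.84 ± 0.31 (adjusted p = 0.00494) and, without replicate 2, fell by 2.14. With the Y-linked block C1qb did not pass (-1.37, adjusted p = 0.1). Cd59a, which blocks the membrane attack complex, was 6.87, 8.57 and 5.39, against 11.24, 9.91 and 11.48 in intact, and fell by 3.94 ± 0.72 (adjusted p = 0.00934, up to 0.0584 with 1 array left out). They were the calls among 19 complement genes, with a median of -0.57 (0.612% of all clusters were called lower). The interferon-induced gene Oasl1 fell by 3.50 ± 0.66 (adjusted p = 0.0127) and was the only call among 23 interferon response genes (median -0.47). Ifit3 was 12.03, 9.84 and 13.41 in LR 7 days, against 12.36, 12.06 and 12.08 in intact, and did not pass (-0.41 ± 0.94). The tetraspanin Cd81 fell by 1.41 ± 0.30 and the lysosomal carboxypeptidase Ctsa by 1.64 ± 0.32.

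The inducible heat shock genes Hspa1a and Hspa1b were among the largest falls. Hspa1a, which encodes the stress-induced chaperone HSP70, was 9.42, 11.26 and 10.57 in LR 7 days, against 14.84, 15.78 and 15.65 in intact, and fell by 5.003 ± 0.65 (adjusted p = 9.04e-04). Hspa1b, its neighbour with a nearly identical product, was 8.50, 10.89 and 10.21, against 14.20, 15.66 and 14.63 in intact, and fell by 4.96 ± 0.72 (adjusted p = 0.00185). The calls held without replicate 2 and with the block. Since probes may not separate these copies, their falls are uncertain as separate results. The small chaperone Hspb1 fell by 1.80 ± 0.40, near the background level.

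These 3 were the calls among 20 heat shock and chaperone genes, whose median was -0.79 (0.612% of all clusters were called lower). Replicate 2 stood apart from the other LR 7 days arrays in this list, at a mean of 11.88 against 10.16 and 10.08, with intact at 11.03, 12.10 and 12.14. Hsp90aa1, a cytosolic chaperone, was 12.41, 16.60 and 11.32 in LR 7 days, against 15.71, 17.10 and 17.25 in intact. Calr, a chaperone of the endoplasmic reticulum, was 15.26, 19.40 and 15.00, against 17.60, 18.09 and 18.01 in intact. Without replicate 2 they differed by -4.82 and -2.77 and 7 of the 20 genes were called, all lower, with a median of -1.13. With replicate 2 alone the median was 0.60.

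The promoter of Hspa1a is shown because its gene and Hspa1b had the largest falls of the list. The 250 bases before the RefSeq start of Hspa1a (chr17:34972157-34972406, minus strand, GRCm38.p6) differ from those of Hspa1b at 3 positions. Capitals mark the 1 match to GAANNTTC, a pair of inverted units of the heat shock element that heat shock factor binds, 104 bases before the start. 
Hspa1a: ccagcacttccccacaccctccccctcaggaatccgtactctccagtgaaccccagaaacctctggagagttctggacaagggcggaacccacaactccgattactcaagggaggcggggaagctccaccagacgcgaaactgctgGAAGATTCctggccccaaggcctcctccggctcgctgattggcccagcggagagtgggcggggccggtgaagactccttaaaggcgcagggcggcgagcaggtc
The letters GAANNTTC or TTCNNGAA stood in 12.8% of the 32851 windows of all genes, in 7 of the 17 heat shock genes with a window and in the windows of all 3 called ones.

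Of 26 immediate early genes, which respond within minutes to stimuli, 3 were called and all were lower (0.612% of all clusters were). Ier5, known in human cells to act with heat shock factor, fell by 2.35 ± 0.42 (adjusted p = 0.00876). Klf2 and Klf4, zinc finger factors of endothelial cells and macrophages, fell by 2.27 ± 0.48 and 2.10 ± 0.34. Klf4 was 9.47, 9.42 and 9.11 in LR 7 days, against 11.04, 11.51 and 11.75 in intact, and was called with the block as well. Klf2 lost its call without each of 5 arrays (adjusted p up to 0.11) but not without replicate 2. The list's median was -0.72, and -0.14 without replicate 2, where 1 member was higher and 6 were lower. Of the members 10 were lower without overlap and 2 higher (13.2% of all clusters had no overlap in either direction).

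Most cytokines were not called. Hbegf, an EGF receptor ligand that acts on hepatocytes, was 10.23, 11.86 and 10.08 in LR 7 days, against 12.46, 14.40 and 13.61 in intact. It fell by 2.77 ± 0.45 (adjusted p = 0.00372), by 3.34 without replicate 2, and was the only call of 22 cytokines and growth factors (median -0.11). Il6, which starts the acute phase response of hepatocytes, was 11.87, 10.00 and 9.90 in LR 7 days, against 11.57, 15.09 and 13.25 in intact, and did not pass (adjusted p = 0.217). Tnf was 15.28, 11.06 and 13.28 in LR 7 days, against 12.19, 12.48 and 11.32 in intact. It did not pass (adjusted p = 0.552), and it passed without replicate 2 (2.28, adjusted p = 0.0466), which lay below all intact arrays. The differences of Il1b and Il10 were 0.09 ± 0.58 and -0.16 ± 0.58. Ifng, the product of T and NK cells, fell by 1.38 ± 0.30 near background. Hgf, the hepatocyte growth factor, differed by -0.07 ± 0.45 and Igf1 by -0.78 ± 0.66.

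Transcription factors of the clock's output moved both ways. Bhlhe40, a repressor of clock genes, was 14.43, 16.41 and 14.04 in LR 7 days, against 17.07, 18.44 and 17.43 in intact, and fell by 2.68 ± 0.48 (adjusted p = 0.00823). Its paralogue Bhlhe41 was 6.55, 5.49 and 4.87, against 3.55, 3.13 and 3.91 in intact, and rose by 2.11 ± 0.41 (adjusted p = 0.0159, up to 0.0883 with 1 array left out). Nfil3, a repressor of the same circuit, rose by 2.59 ± 0.53 (adjusted p = 0.0206, up to 0.0971). These were the calls among 18 clock genes (1.00% of all clusters were called). Mcl1, a survival factor of the Bcl2 family, fell by 1.82 ± 0.34, and Xbp1, a factor of the unfolded protein response and of plasma cells, by 1.85 ± 0.39.

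Some further genes called in all 4 fits were chosen for naming after their values were seen. Slc15a2, a transporter of short peptides, was 3.55, 3.79 and 2.53 in LR 7 days, against 7.28, 7.12 and 6.50 in intact, and fell by 3.68 ± 0.53 (adjusted p = 0.00185). Slc9a9, a sodium and proton exchanger of endosomes, was 10.71, 10.97 and 10.91, against 13.14, 13.79 and 13.63 in intact, and fell by 2.66 ± 0.40. Slc27a6, a fatty acid transporter, fell by 2.87 ± 0.35 (adjusted p = 4.22e-04), the endocytic adaptor Ston2 by 1.89 ± 0.31 and the selenoprotein Selenom by 2.09 ± 0.33. For each of these genes all 3 LR 7 days arrays, replicate 2 included, lay below all intact arrays.

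**Figure D4:**
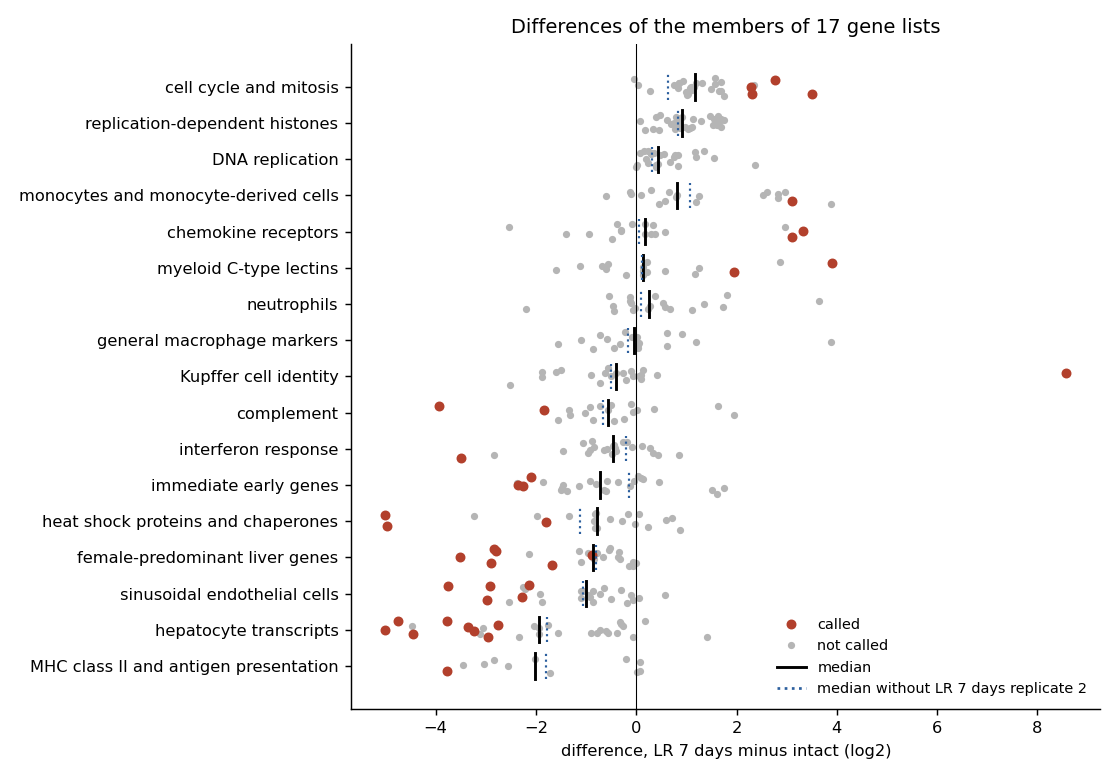
Log2 difference (LR 7 days minus intact) of the measured members of selected gene lists, 1 row per list, with 1 point per gene, called genes in red, a black bar at the list's median and a dotted bar at the median without LR 7 days replicate 2. By median the hepatocyte list (median -1.95) and the class II list (-2.02) lay lowest, and the cell cycle list (1.17) and the histone list (0.92) lay highest.

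Part of the hepatocyte transcripts fell. Ces1c, a carboxylesterase secreted by mouse liver, was 7.21, 6.81 and 5.26 in LR 7 days, against 13.22, 9.85 and 11.24 in intact, and fell by 5.01 ± 0.80 (adjusted p = 0.00315). Serpina1a, an inhibitor of neutrophil elastase, was 10.33, 8.40 and 9.11, against 15.76, 12.50 and 13.87 in intact, and fell by 4.76 ± 1.02 (adjusted p = 0.0258, up to 0.134 with 1 array left out). The thyroid hormone carrier Ttr fell by 4.46 ± 1.05 and the ethanol-oxidising enzymes Cyp2e1 and Adh1 by 3.77 ± 0.74 and 3.36 ± 0.71. Ttr lost its call without replicate 2 (adjusted p = 0.064). Hpd, Apoh and Ces1d fell by 2.76 ± 0.64, 2.96 ± 0.71 and 3.24 ± 0.61. Apoh also lost its call without replicate 2 (adjusted p = 0.0709).

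Of 29 measured hepatocyte genes these 8 were called, all lower (0.612% of all clusters were), and the median was -1.95. The list averaged 7.61, 6.47 and 6.29 in LR 7 days, against 9.37, 7.80 and 8.98 in intact. Without replicate 2, 7 were called, all lower, and with the Y-linked block 1. Albumin was 19.77, 19.13 and 17.69 in LR 7 days, against 19.68, 19.78 and 19.84 in intact, where the scale was compressed, and did not pass (-0.90 ± 0.52). Outside the list, Pigr, which carries antibodies into bile, fell by 4.08 ± 0.68, the bile acid sulfotransferase Sult2a8 by 4.16 ± 0.56, paraoxonase Pon1 by 3.35 ± 0.52 and Cyp4b1 by 3.53 ± 0.54. The corticosteroid carrier Serpina6 fell by 1.80 ± 0.29, the growth hormone receptor Ghr fell by 2.30 ± 0.47, the hepcidin paralogue Hamp2 by 2.66 ± 0.54 and the uridine phosphorylase Upp2 by 1.44 ± 0.27.

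Several of the liver genes that fell are expressed more in livers of female than of male mice. Of 24 measured female-predominant genes 6 were called, all lower (0.612% of all clusters were). The number was 6 without replicate 2 and 1 with the Y-linked block. Cyp3a41a was 2.68, 2.63 and 2.52 in LR 7 days, against 7.07, 4.30 and 6.99 in intact, and fell by 3.51 ± 0.54 (adjusted p = 0.00298). Cyp2b9 was 3.24, 3.24 and 3.47, against 7.09, 5.29 and 6.05 in intact, and fell by 2.83 ± 0.41 (adjusted p = 0.002). Cyp3a41b, Cyp3a16, Cyp2a4 and Sult2a1 fell by 2.81 ± 0.50, 1.69 ± 0.27, 2.90 ± 0.65 and 0.88 ± 0.20. The copies Cyp3a41a and Cyp3a41b, and Cyp2a4 and Cyp2a5, are nearly identical, so their separate values are uncertain.

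The 6 called genes averaged 3.50, 3.46 and 3.58 in LR 7 days, against 6.61, 5.01 and 6.22 in intact. They were chosen as called lower, so their low values in LR 7 days partly follow from that choice. LR+SE 3 days replicate 1, the fifth array without the signal, was at 5.22, and the 17 arrays of the remaining samples did not exceed 3.83. The hepatocyte genes Ces1c, Serpina1a and Ttr, also chosen among the calls, averaged 9.01, 7.24 and 6.79 in LR 7 days, against 14.14, 10.69 and 12.44 in intact. They averaged 13.05 on LR+SE 3 days replicate 1, and 13.97 and 12.81 on replicates 2 and 3 of that group, which had Y-linked signal. None of 16 male-predominant genes was called (median -0.21). What the sex of the intact preparations contributed to the falls of these liver genes was not tested.

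Some sinusoidal endothelial genes fell as well. Clec4g, a lectin of these cells, was 12.67, 12.10 and 12.43 in LR 7 days, against 14.38, 13.86 and 15.82 in intact, and fell by 2.28 ± 0.47 (adjusted p = 0.0221, up to 0.129 with 1 array left out). Oit3 was 11.62, 11.42 and 11.46, against 14.83, 13.07 and 15.52 in intact, and fell by 2.97 ± 0.59 (adjusted p up to 0.105 with 1 array left out). Ehd3, an endocytic ATPase, the nuclease Dnase1l3 and the inhibitory Fc receptor Fcgr2b, which Kupffer cells and macrophages also carry, fell by 3.76 ± 0.78, 2.91 ± 0.61 and 2.15 ± 0.45. Of 26 measured genes these 5 were called, all lower (0.612% of all clusters were), and the median was -1.01. Of the members 11 were lower without overlap, which held in either direction for 13.2% of all clusters. Without replicate 2, 8 were called, and none with the Y-linked block. The list averaged 9.37, 9.69 and 9.84 in LR 7 days, against 11.08, 10.22 and 11.50 in intact. Outside the list the endothelial genes Adgrl4 and Cd300lg fell by 1.94 ± 0.45 and 1.88 ± 0.38, and Tinagl1, a protein of basement membranes, fell by 2.51 ± 0.39. Adgrl4 lost its call without replicate 2 (1.56, adjusted p = 0.0761). Ednrb, the endothelin B receptor, went the other way and was 9.29, 7.50 and 8.56 in LR 7 days, against 5.54, 6.45 and 5.58 in intact (2.59 ± 0.53, adjusted p = 0.0212, up to 0.112 with 1 array left out).

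Lymphocyte genes had some calls. Jchain, the joining chain of secreted antibodies, was 5.82, 6.50 and 6.04 in LR 7 days, against 10.38, 8.16 and 11.15 in intact, and fell by 3.78 ± 0.64 (adjusted p = 0.0054). Cd22, an inhibitory receptor of B cells, fell by 2.73 ± 0.41, and the B cell genes Tnfrsf13c and Ebf1 by 1.82 ± 0.42 and 1.27 ± 0.25. Of 14 measured B lineage genes 3 were called (Jchain, Ebf1 and Xbp1), all lower (0.612% of all clusters were), with a median of -0.37. The list's mean was 4.91, 5.55 and 4.95 in LR 7 days, against 6.03, 5.47 and 5.93 in intact. Gzmb, a protease of cytotoxic cells, fell by 1.55 ± 0.32 and was the single call of 21 T and NK cell genes. Their mean was 4.14, 3.76 and 3.91, against 4.68, 4.26 and 4.59 in intact, close to background. No gene was called in the lists for dendritic cells, stellate cells, cholangiocytes, erythroid cells, platelets or mast cells with basophils and eosinophils.

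Other gene groups had no more than 1 call, a share near the 1.00% of all clusters. The single call of the proteasome list was Psma6 (1.58 ± 0.36, adjusted p = 0.0378, up to 0.181 with 1 array left out) of 32 subunits, whose median was 0.26. The glycolysis and hypoxia list had no call among 21 and a median of 0.72, with 8 genes higher without overlap and 1 lower. The respiratory chain list had none among 33 and a median of 0.61, with 10 higher and 1 lower without overlap. Of all clusters 13.2% had no overlap in either direction. No gene of p53 targets (23 measured, median -0.09), NF-kappaB subunits and inhibitors (17, -0.05), heme and iron handling (23, 0.05) integrins and leukocyte adhesion (25, -0.09), cytoplasmic ribosomal proteins (32, 0.18) or fatty acid oxidation (17, -0.23) was called. Of 27 lysosomal genes Ctsa was the only call (median -0.14). The 6 measured X-linked genes that escape inactivation had no call (median -0.85), but without replicate 2 Kdm6a, Eif2s3x and Ddx3x were lower (-2.59, -3.14 and -1.37) and the Y-linked Uty and Eif2s3y higher (6.46 and 5.20).

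Set in the order intact, 24 h, 3 days and 7 days after resection with the spleen, the genes called at 7 days followed different courses. The means of Marco were 7.78, 16.53, 14.41 and 16.36, and its test between LR 7 days and LR 24 h did not pass (-0.17, adjusted p = 0.95). Cd83 was already low at 24 h (15.31, 9.82, 10.09 and 10.11), as were Slc15a2 (6.97, 3.97, 3.67 and 3.29) and Slc9a9 (13.52, 11.04, 11.29 and 10.86). Saa3 peaked at 24 h, with means of 7.13, 19.71, 16.96 and 13.04, and it fell by 6.67 between LR 24 h and LR 7 days (adjusted p = 0.0023). Mki67 was highest at 3 days (8.03, 8.22, 12.54 and 11.52), and Gpnmb was highest at 7 days (5.29, 5.22, 8.35 and 10.32). For Gpnmb the test between LR 7 days and LR 24 h gave 5.10 (adjusted p = 0.00721) and for Mki67 3.30 (adjusted p = 0.00504).

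Between LR 7 days and LR 24 h 1680 clusters (7.57%) differed, 858 higher and 822 lower, and the intact arrays enter this test only through the spread pooled over all arrays (688 were called with only the 6 arrays of these groups fitted). Hgf fell by 3.23 against its 24 h mean of 12.16 (adjusted p = 2.08e-04) and Igf1 rose by 2.83 against 15.11 (adjusted p = 0.0111), and at 7 days neither was called against intact. H2-Aa and H2-Eb1 were 3.69 and 4.82 higher than at 24 h (adjusted p = 0.0319 and 0.026). Among endothelial genes Tinagl1, Ednrb, Clec4g and Oit3 changed by -5.61, -4.57, -4.05 and -3.83 log2 units. Their 24 h means of 12.04, 13.02, 16.45 and 15.33 exceeded those of intact (8.93, 5.86, 14.69 and 14.47). Itgam and Clec4e changed by -4.72 and -3.51 (adjusted p = 0.0142 and 0.0229).

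**Figure D5:**
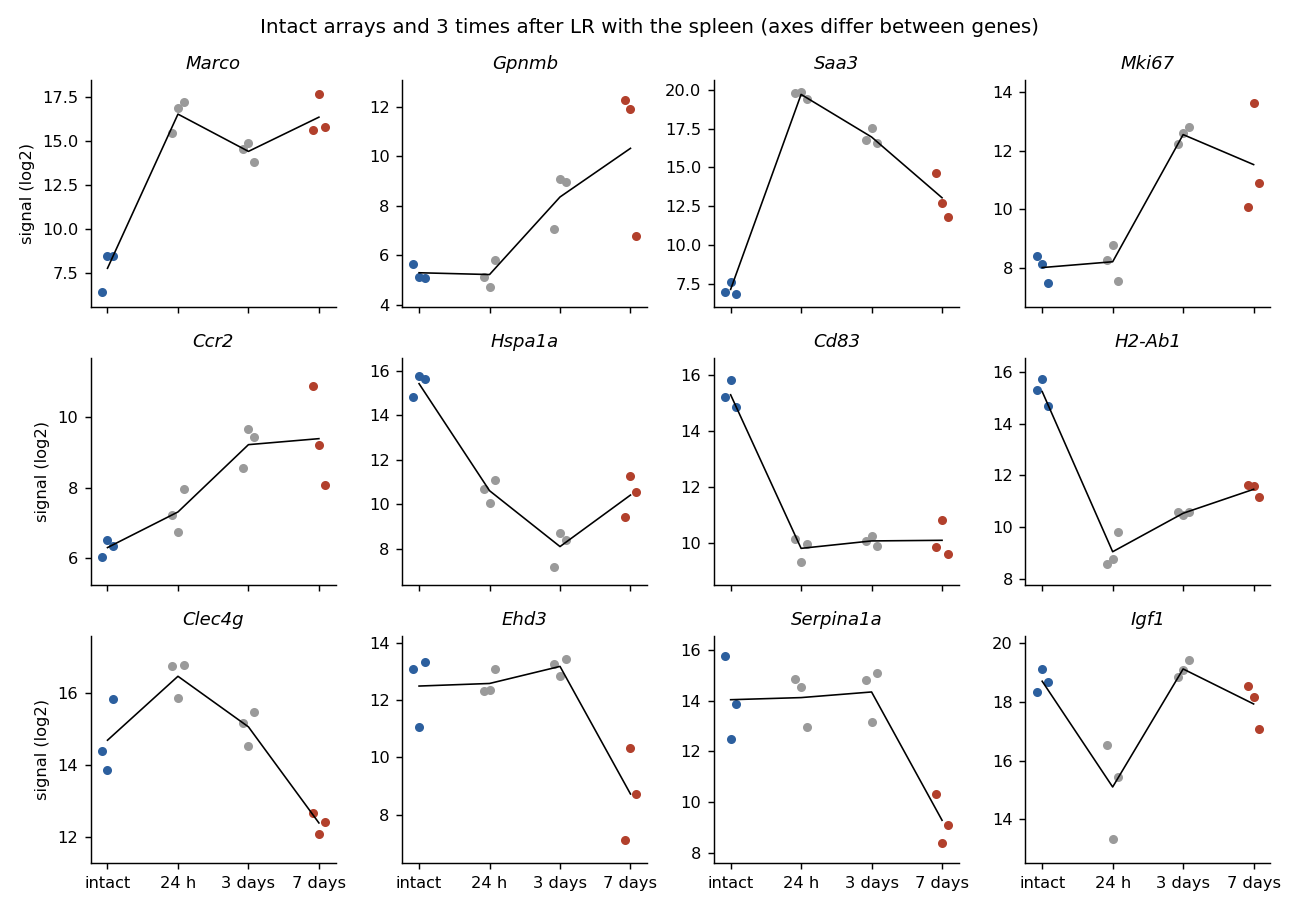
Log2 signal of selected genes in intact preparations and 24 h, 3 days and 7 days after resection with the spleen, 1 point per array (intact blue, LR 7 days red) and a line through the group means. Marco stayed between 14.41 and 16.53 on average at the 3 times against 7.78 in intact, while Saa3 went down over the times after its 24 h mean of 19.71.

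The same 7-day interval was also sampled in mice whose spleen had been removed 7 days before resection (LR+SE 7 days), with splenectomy alone (SE) as their control. The response after splenectomy differed from that with the spleen in 27 clusters (0.122%). In 11 of the named genes the difference between the responses passed. Jchain, for example, changed by 2.54 after splenectomy and by -3.78 with the spleen, a difference of 6.31 ± 0.91 (adjusted p = 0.00677), and Clec4g by 2.58 and -2.28. Jchain averaged 8.78 in LR+SE 7 days and 6.24 in SE, against 6.12 in LR 7 days and 9.90 in intact. The count lay between 7 and 482 when 1 array was left out, 482 being without LR 7 days replicate 2. Marco, Cd83, Hspa1a and Mki67 were not among the calls (adjusted p = 0.156, 0.857, 0.863 and 0.143). For Cd83 and Hspa1a the difference between the responses was 0.58 ± 0.85 and -0.61 ± 0.92. For Marco and Mki67 it was -4.08 ± 1.16 and -3.51 ± 0.97, so the missing call does not show equal responses. Mki67 changed by -0.011 after splenectomy and by 3.50 with the spleen. Its mean was already 11.13 in SE, against 8.03 in intact and 11.52 in LR 7 days.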

How the data were processed

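RNA of F4/80-selected liver cells was hybridised to 24 Clariom S mouse arrays in 8 groups of 3. Each preparation pooled mice, and p-values measure only the spread between these preparations. The deposited table held 1 log2 signal per array and transcript cluster, which the authors made with the Transcriptome Analysis Console by RMA (robust multi-array averaging). Versions, the variant of RMA and the annotation are not given in the sources used here. No counts underlie the values, and the number of arrays limits the precision.

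Of 28846 entries 6640 control probesets were left out. GEO's platform annotation gave exactly 1 symbol for 19572 of the 22206 clusters (19505 distinct) and none for 2634, which were not named. For 55 symbols carried by more than 1 cluster, that of the highest mean signal stood for the gene. Background, 3.98, was the level under which 95% of the values of 1091 odorant receptor clusters lay, and 11329 clusters averaged at least this.

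Models were fitted with limma 3.58.1 (R 4.3.3) using every array (24) and a mean for each group, which left 16 residual degrees of freedom beside 4.23 of the prior, with Benjamini-Hochberg adjustment over all clusters in each comparison and calls at an adjusted p under 0.05. The comparisons were LR 7 days minus intact, LR 7 days minus LR 24 h, and the response after splenectomy minus that with the spleen. Scripts were tested on simulated data. For 3 against 3 arrays the smallest exact two-sided permutation p is 0.1, so the tests rest on the pooled spread. The methods' t-test was an alternative, and so were other normalizations, weights, filters and blocks, and leaving out each array.

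Named genes were the 12 largest rises and 12 largest falls called without overlap of the groups, up to 5 called members of each gene list, and 30 fixed genes, of which 1 was not among the symbols. Another 50 were chosen after their values were seen, among them Slc15a2, Csf2ra, Csf2rb, Fcgr3, Pon1, Cyp4b1, Hamp2, Ednrb, Ptger4, Tinagl1, the sex-linked genes, Plac8, Fabp4, Hsp90aa1, Calr, H2-Aa, H2-Eb1 and Ifit3. The comparison, the 53 lists and the rules were chosen with earlier results of these data known. The array named under 80% of the lists for erythroid cells (10 of 18 genes), B lineage (14 of 20), ribosomal proteins (32 of 43), cholangiocytes (10 of 13), fatty acid oxidation (17 of 22), lysosomal proteins (27 of 34) and X-linked genes (6 of 8). Promoter windows were RefSeq's on GRCm38.p6. Python 3.11.15 with matplotlib 3.10.9 drew the figures.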

Additional observations from a re-analysis of the deposited data

Results flagged for a closer look

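In 11 named genes the response to resection at 7 days differed between mice with and without a spleen (limma, adjusted p under 0.05 for the difference itself, the response after splenectomy minus that with the spleen, 27 such clusters in all or 0.122%). The largest differences were in Jchain (6.31, adjusted p = 0.00677) and the hepatocyte gene Ces1c (6.07, adjusted p = 0.0305). Jchain changed by 2.54 after splenectomy and by -3.78 with the spleen, and Ces1c by 1.07 and -5.01. The liver genes Ces1d, Cyp4b1, Pon1 and Alb differed by 4.71, 4.497, 4.13 and 3.77. Ces1c averaged 7.83 in LR+SE 7 days and 6.77 in SE, against 6.43 in LR 7 days and 11.44 in intact. Alb averaged 18.96 in LR+SE 7 days and 16.10 in SE, against 18.86 in LR 7 days and 19.77 in intact. For Ces1c, Alb, Jchain, Pon1 and Bhlhe41 the gap between the controls SE and intact was wider than that between the resected groups. For Cyp4b1, Clec4g, Oit3, Fcgr2b and C1qb it was narrower. Endothelial genes showed the same sign, with 4.87 for Clec4g (2.58 after splenectomy, -2.28 with the spleen), 4.58 for Oit3 and 3.98 for Fcgr2b. C1qb differed by 2.33 (0.49 after splenectomy, -1.84 with the spleen). Bhlhe41 was the one with the opposite sign, at -3.18 (-1.07 after splenectomy, 2.11 with the spleen). All 11 differences include the intact arrays, which lacked Y-linked signal, and with Y-linked signal as a block 8 clusters were called in place of 27. The part of sex in these values was not tested.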

How the results depend on the processing

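The 222 calls between LR 7 days and intact became 45 with Y-linked signal as a block, 574 with array weights, 30 with only the 6 arrays fitted and 0 by the methods' t-test after Benjamini-Hochberg (1521 at an unadjusted p under 0.05, against 2747 by limma). With 1 array left out the count ran from 81 to 781, the latter without LR 7 days replicate 2. Quantile normalization gave 260, median centring 195, a trended robust prior 219 and the filter on dim clusters 295. Whether replicate numbers paired the samples could not be settled. Correlations of deviations were 0.09, 0.23 and -0.23, and 2 of 3 LR 7 days arrays were closest to the intact array of their own number. Between all groups the median correlation was -0.007 for the same number and -0.019 for different numbers. The replicate block gave 209 calls. The 1680 calls between LR 7 days and LR 24 h became 688 with only the 6 arrays and 847 to 1747 with 1 array left out. The 27 calls of the difference between responses became 8 with the Y-linked block, 94 without dim clusters and 7 to 482 with 1 array left out.

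No called named gene changed direction under any setting. For calls without overlap of the groups (221 of the 222), leaving out arrays could not change it. Among genes that were not called, replicate 2 alone against intact turned Timd4 (0.72), Tnf (-0.94), Il10 (1.04), Kdm6a (0.25), Kdm5c (0.29), Eif2s3x (1.31), Ddx3x (0.21), Kdm5d (-0.23), Eif2s3y (-0.0032), Uty (-0.15), Plac8 (-0.94) and Calr (1.504). The Y-linked block turned Timd4 (0.89), Vsig4 (0.15), Tnf (-0.63), Kdm5c (0.24), Eif2s3x (0.36), Kdm5d (-0.57), Eif2s3y (-0.46) and Calr (0.021), and array weights turned Il1b (-0.18). With 1 array left out Timd4 ranged from -0.46 to 0.28, Adgre1 from -0.068 to 1.11, Il1b from -0.39 to 0.56, Hgf from -0.56 to 0.32, Il10 from -0.76 to 0.57, Ifit3 from -1.23 to 0.55 and Cd5l from -0.019 to 0.10. The cause of these changes was not tested.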

Other observations

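The following genes were chosen after their values were seen, as examples of large differences between LR 7 days replicate 2 and replicates 1 and 3. The adenosine kinase gene Adk was 12.13 on replicate 2 and 6.85 and 5.90 on replicates 1 and 3, against 6.32, 6.92 and 7.82 on intact replicates 1, 2 and 3. Cdh6, a cadherin, was 9.05 on replicate 2 and 3.08 and 3.54 on the other LR 7 days arrays, against 3.33 to 3.40 in intact. Cd55, which protects cells from complement, was 16.51 on replicate 2 and 10.96 and 11.63 on the others, against 10.80 to 12.35 in intact. Irak3, an inhibitor of Toll-like receptor signalling, was 16.89 on replicate 2 and 11.54 and 12.39 on the others, against 10.65 to 11.36 in intact. Lower on replicate 2 were the eosinophil chemokine Ccl24 (9.32, with 13.85 and 13.13 on the others, against 14.84 to 15.71 in intact) and its receptor Ccr3 (6.26, with 10.13 and 10.76, against 10.57 to 12.77). The immediate early gene Egr1 was 14.02 on replicate 2 and 18.16 and 18.70 on the others, against 16.93 to 17.91 in intact. Bin2 (18.57, with 13.06 and 13.33) and Cyb5r3 (15.93, with 10.90 and 10.97) were high on replicate 2 and low on the others, against 15.49 to 16.12 and 15.06 to 15.53 in intact. These differences between arrays of 1 group were not tested.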
